A study of Mus musculus with 35 samples.

Results

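The genes described here are 10 markers of the phagocytic, disease-associated state of microglia: Clec7a, Cst7, Itgax, Axl, Lpl, Spp1, Apoe, Trem2, Tyrobp and Lgals3. They were chosen by symbol, as 10 of the 32544 genes in the count tables, and all 10 were present. Their levels were read in hippocampus of male C57BL/6JOlaHsd mice, an inbred strain, after an intra-amygdala injection of kainic acid (IAKA), an excitotoxin that triggers status epilepticus, or of the PBS vehicle. Mice were taken at 24 hours or at 2 weeks, and the study's methods describe lorazepam given after kainic acid to lessen the seizures and deaths, and perfusion before dissection. Each mouse could give an m6A library, made from RNA captured with an antibody against N6-methyladenosine, and an input library, made from total RNA without capture. Among m6A libraries the 24 hour groups held 5 mice given IAKA and 3 given PBS, and the 2 week groups held 6 and 5. Among input libraries with at least 100000 counts these numbers were 3 and 1 at 24 hours, then 6 and 3 at 2 weeks.

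Microglia, the resident phagocytes of brain, leave their resting programme around dying cells, myelin debris and amyloid and take on a phagocytic, lipid-handling one. In that switch the receptor TREM2 binds lipids and lipoproteins, among them APOE, and signals through its adaptor TYROBP. Later genes of the programme include the pattern receptor Clec7a, the integrin Itgax, the lipase Lpl and the protease inhibitor Cst7. Several of these genes have other sources in hippocampus: astrocytes make most brain Apoe, some neurons and other cells make Lpl, and Axl is also used by other cells, so whole-tissue levels mix them. In bulk tissue fewer cells of a type and less RNA per cell cannot be told apart. Clec7a, Cst7, Itgax and Spp1 are the members most often used to mark the state itself.

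The promoters of the members that stood highest against PBS are shown, because PU.1, the factor that defines the myeloid lineage, and other Ets factors bind sequences built on GGAA. Promoter windows of 250 bases before to 50 bases after the transcript start were found for 8 of the 10 members in RefSeq's annotation of GRCm38.p6. Lpl and Tyrobp had no entry. The motif AGGAAGT, with its reverse complement ACTTCCT, was present in the windows of 2 of these members, Spp1 and Cst7, and in 9.35% of all 32851 windows. The 8 members have 12 windows between them. The motif was in 1 window of Spp1 and 1 of Cst7, which is the count to set beside that share of windows. Spp1 and Clec7a have a pair of windows each, Apoe has several, and the motif was in the upstream window of Spp1 alone. It is in capitals in the 250 bases before each start.
Spp1 (chr5:104434861-104435110, plus strand): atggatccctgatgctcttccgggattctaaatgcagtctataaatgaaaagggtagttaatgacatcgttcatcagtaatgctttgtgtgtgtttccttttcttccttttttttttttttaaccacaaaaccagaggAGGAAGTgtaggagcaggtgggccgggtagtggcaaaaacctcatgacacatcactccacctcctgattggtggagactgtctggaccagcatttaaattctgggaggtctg
Cst7 (chr2:150570165-150570414, plus strand): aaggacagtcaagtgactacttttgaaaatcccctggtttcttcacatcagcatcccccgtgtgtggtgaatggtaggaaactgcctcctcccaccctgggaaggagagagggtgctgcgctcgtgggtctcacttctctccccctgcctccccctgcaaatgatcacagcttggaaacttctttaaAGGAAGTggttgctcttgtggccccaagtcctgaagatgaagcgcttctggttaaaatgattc
Clec7a (chr6:129472780-129473029, minus strand, 1 of its annotated starts): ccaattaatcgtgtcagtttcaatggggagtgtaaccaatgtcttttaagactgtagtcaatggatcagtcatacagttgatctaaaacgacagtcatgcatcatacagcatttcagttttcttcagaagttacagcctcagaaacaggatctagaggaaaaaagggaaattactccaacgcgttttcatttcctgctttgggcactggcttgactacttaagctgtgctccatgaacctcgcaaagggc
The motif began 112 bases before the start of Spp1 and 63 bases before that of Cst7, read along the gene's own strand in both. The Clec7a window holds no such run of letters. Nor does that of Lgals3, which is not printed, although its log2 difference of 3.69 in input at 24 hours was above the 3.26 of Spp1.

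The m6A libraries held 1652933 to 34564536 counts and the 13 input libraries 3057578 to 12694434. Another 3 input libraries held at most 34486 counts and were left out. A score of how m6A-like each library was placed all 13 input libraries between -1.69 and -0.47 log2 units. It is the mean log2 level of the 200 genes most raised in the other mice's m6A libraries minus that of the 200 most raised in their input, each taken from the midpoint of both assays. Of the 19 m6A libraries 17 scored 0.22 to 1.93, whereas that of IAKA mouse 6 at 2 weeks scored -0.72, inside the range of input, and that of IAKA mouse 8 at 24 hours scored -0.03. Both libraries of mouse 8 also stood apart in complexity, with 23196 and 23730 genes expected at a common depth of 1652933 counts, against 15933 to 18911 in the 30 others. Most log2 differences in which mouse 6 or mouse 8 stood at an end of its group are therefore also given without it, or as a range leaving out 1 library. The m6A libraries came in 3 sets, told by the number that opens their column names. At 24 hours the 3 IAKA libraries of set 3 scored -0.03 to 0.34. The 2 IAKA libraries of set 4 scored 1.60 and 1.75, beside 1.65 and 1.70 for its 2 PBS libraries. At 2 weeks set 3 held 3 IAKA libraries only, set 4 held 2 PBS libraries only, and set 5 held 3 of each. Among input libraries at 2 weeks, column names opened with Input for 3 of the IAKA mice. The input columns of the other IAKA mice and of all 3 PBS mice had no such prefix. Library set and treatment were thus partly confounded at both times. Markers of hippocampus (Zbtb20), neurons (Snap25) and astrocytes (Slc1a2) were present in every library.

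**Figure D1:**
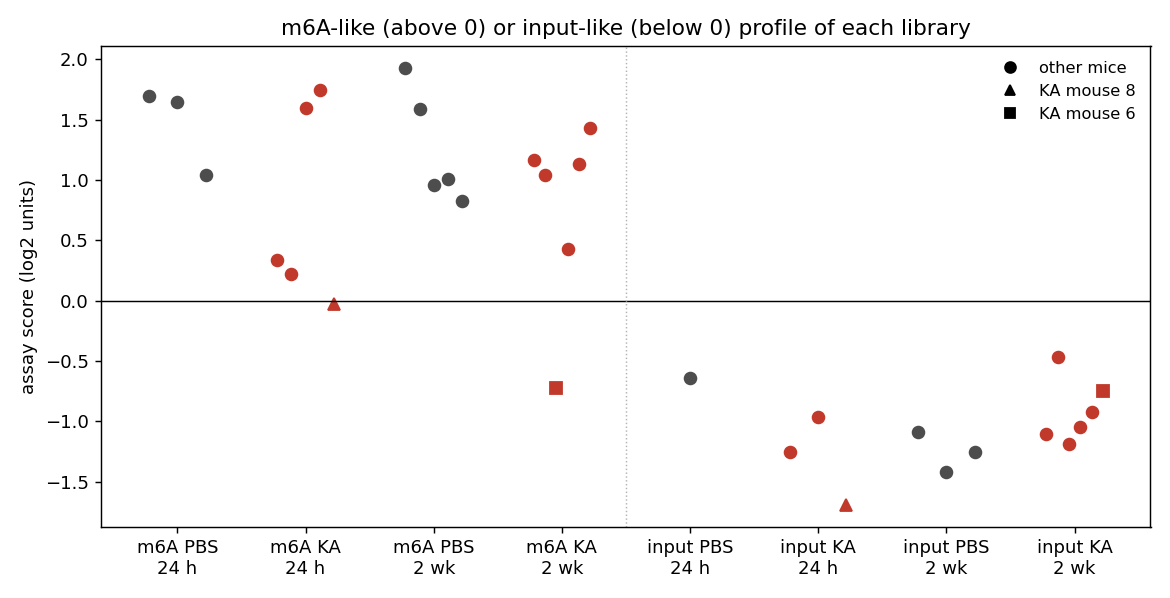
Assay score of each library (log2 units, 1 point per mouse; grey, PBS; red, IAKA, written KA; triangles, mouse 8; squares, mouse 6). The 13 input libraries lie below 0 and 17 of 19 m6A libraries above it; the m6A library of mouse 6, at -0.72, lies among the input libraries.

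At 2 weeks Cst7 and Clec7a had the largest log2 differences of the members tested in both assays, Cst7 the larger estimate and Clec7a the smaller p in m6A. Clec7a encodes Dectin-1, a receptor for fungal glucans that signals through SYK. In m6A libraries it measured 0.902, 0.682, 1.73, 0.916 and 0.304 CPM, the count scaled by the library total, in the 5 PBS mice. In the 6 IAKA mice its lowest value was 3.07, its median 9.03 and its highest 12.8 CPM. Every IAKA mouse stood above every PBS mouse, which held for 0.26% of the 16157 genes tested. In edgeR's quasi-likelihood test the log2 difference was 3.20 ± 0.46 (SE), about 9.21-fold, and it had the smallest p of all 16157 genes, but its adjusted p of 0.0784 missed the threshold of 0.05. DESeq2 called it, with an adjusted p of 8.73e-09. Without the m6A library of mouse 6 the difference was 3.09 with an edgeR adjusted p of 0.172, and within set 5, where all 6 libraries scored above 0, it was 2.87 ± 0.63. No gene passed within set 5, nor with the library set as a block. Leaving out 1 library at a time, the edgeR adjusted p of Clec7a was 0.03 to 0.379.

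Input libraries showed Clec7a in the same order. The 3 PBS mice measured 1.78, 0.855 and 1.22 CPM, and the 6 IAKA mice had a lowest value of 1.96, a median of 6.26 and a highest of 15.3 CPM. The groups did not overlap, as for 2.64% of the 13752 genes tested. The log2 estimate was 2.43 ± 0.75 (edgeR adjusted p = 0.266; DESeq2 adjusted p = 0.0285), on 3 to 8 reads per PBS library. At 24 hours the m6A levels overlapped: 2.01, 0.429 and 1.48 CPM in PBS mice and 0.505, 1.82, 2.75, 3.91 and 4.82 CPM in IAKA mice, the last of them in mouse 8. The difference at 24 hours was 1.26 ± 0.73 with an edgeR adjusted p of 0.983, and without mouse 8 it was 0.89. In input at 24 hours it was 1.39 ± 1.13, and 0.71 without mouse 8.

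Cst7 encodes cystatin F, an inhibitor of lysosomal cathepsins in myeloid and cytotoxic cells. In m6A libraries at 2 weeks it measured 0.263, 0.682, 0.216, 0.122 and 1.52 CPM in PBS mice, the highest from 10 reads in mouse 4. In IAKA mice the lowest value was 0.458, the median 3.68 and the highest 15.3 CPM, and 4 of the 6 stood above all PBS mice. Its log2 difference was 3.58 ± 0.90 (edgeR adjusted p = 0.875; DESeq2 adjusted p = 0.0108). In input the separation was complete: the 3 PBS libraries held 2 Cst7 reads between them and the 6 IAKA libraries 138, from 1.41 to 15.0 CPM. The ratio of pooled CPM was 27.8, with an exact 95% interval of 7.54 to 232 that covers counting error only. The edgeR adjusted p was 0.242 and that of DESeq2 0.0113. At 24 hours Cst7 measured 0.287, 0.215 and 0.221 CPM in the m6A libraries of PBS mice and 1.52, 0, 1.26, 2.25 and 1.11 CPM in those of IAKA mice. The 1 IAKA library without a Cst7 read was the shallowest, where 3 counts are worth 1.81 CPM. That difference was 2.41 ± 0.73, with an edgeR adjusted p of 0.567.

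Itgax encodes CD11c, an integrin subunit shared with dendritic cells, and had few reads. Of the 4 comparisons of IAKA with PBS it passed the filter on low counts in input at 24 hours alone. There the PBS mouse measured 0.394 CPM and the IAKA mice 0.546, 0.768 and 3.13 CPM, the highest in mouse 8, with a difference of 2.28 ± 1.59. Without mouse 8 Itgax did not pass the filter. In m6A libraries at 2 weeks it measured 0.0751, 0.0975, 0.144, 0 and 0 CPM in PBS mice, 5 reads in all. The 6 IAKA mice held 184 reads, with a lowest value of 0.280, a median of 0.452 and a highest of 3.76 CPM, and all stood above the PBS mice. The ratio of pooled CPM was 20.2 (95% counting interval 8.49 to 62.9), and 130 of the 184 reads came from mouse 42. In input at 2 weeks the 26 IAKA and 2 PBS reads gave a ratio of 5.23 (1.31 to 45.5), and the groups overlapped.

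**Figure D2:**
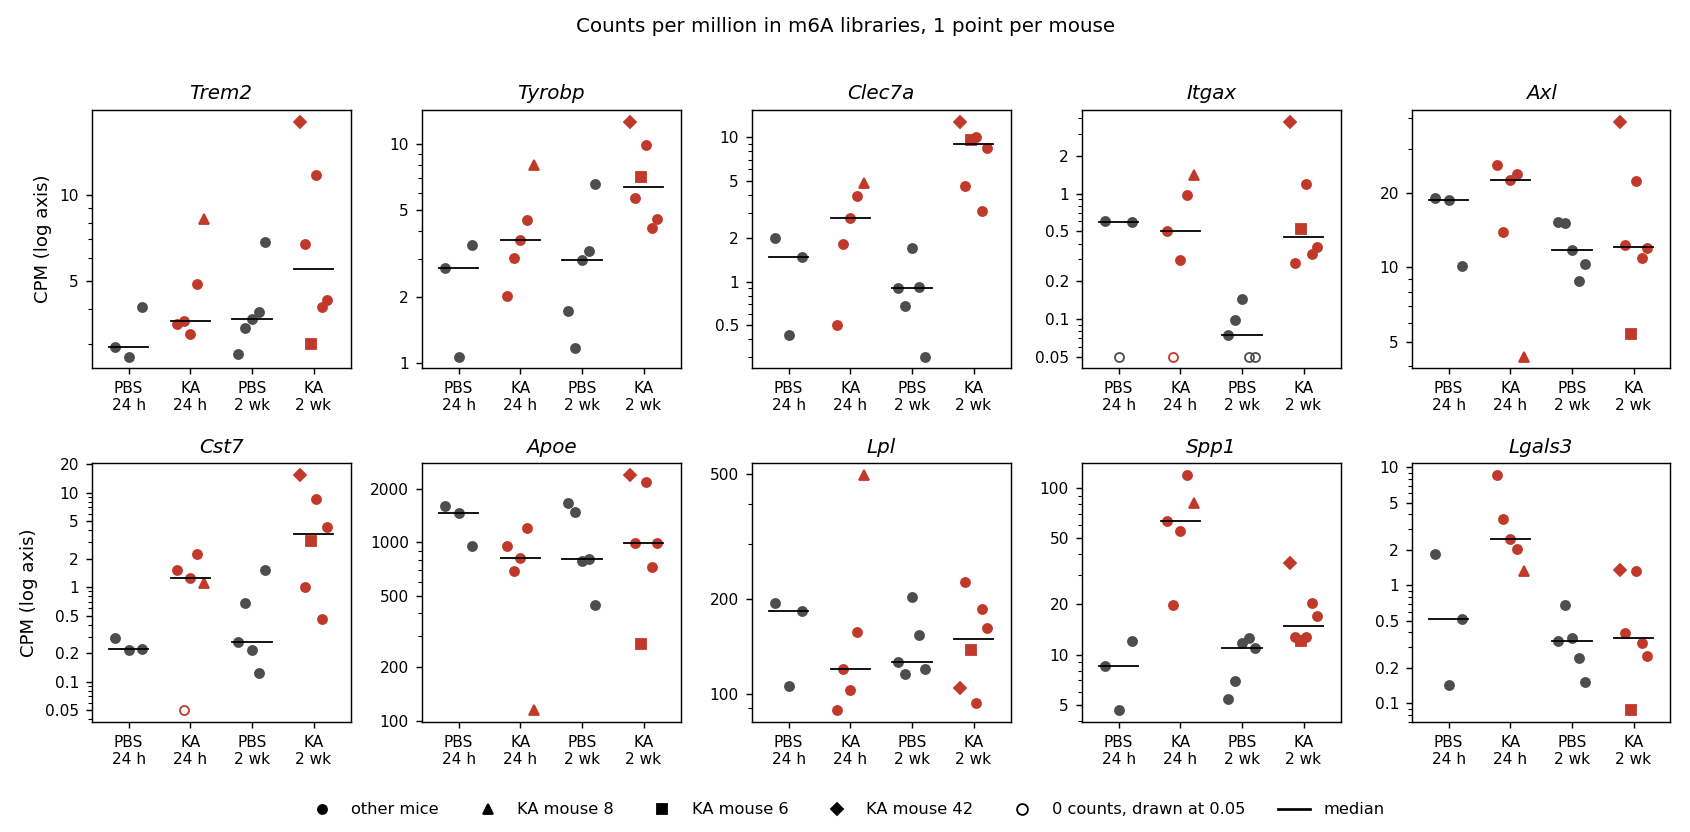
CPM (log axis) of each member in the m6A libraries, 1 point per mouse (grey, PBS; red, IAKA, written KA; bar, group median; open symbols, 0 counts). Clec7a in all 6 IAKA mice at 2 weeks (3.07 to 12.8 CPM) lies above all 5 PBS mice, and Spp1 in all 5 IAKA mice at 24 hours (20.0 to 119 CPM) above all 3 PBS mice.

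TREM2 and its adaptor were measured at low level and differed less. Trem2 measured 2.78, 3.41, 3.67, 3.91 and 6.84 CPM in the m6A libraries of PBS mice at 2 weeks. In IAKA mice the lowest value was 3.01, in mouse 6, the median 5.5 and the highest 18.0 CPM, in mouse 42. The ranges overlapped, and 2 of the 6 IAKA mice exceeded every PBS mouse. The log2 difference was 1.02 ± 0.44 (edgeR adjusted p = 0.875), 1.18 without the library of mouse 6 and 0.61 without that of mouse 42. In input the 3 PBS mice measured 4.66, 3.42 and 2.80 CPM and the 6 IAKA mice 5.497 to 17.2 CPM, with a median of 7.61. Here the groups did not overlap, and the difference was 1.31 ± 0.39 with an edgeR adjusted p of 0.266. At 24 hours the m6A levels were 2.94, 2.72 and 4.06 CPM in PBS mice and 3.54, 3.63, 3.27, 4.88 and 8.24 CPM in IAKA mice, the highest in mouse 8. Without that library the log2 difference of 0.66 became 0.17, and in input it moved from 0.79 to -0.00.

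Tyrobp, also called DAP12, carries the activating motif for TREM2 and other myeloid receptors. Its m6A levels at 2 weeks were 1.73, 1.17, 2.95, 3.24 and 6.54 CPM in PBS mice, against a lowest value of 4.12, a median of 6.38 and a highest of 12.6 CPM in IAKA mice. All IAKA mice exceeded 4 of the 5 PBS mice, and 3 exceeded the remaining one, mouse 4. The difference was 1.34 ± 0.44 in m6A (edgeR adjusted p = 0.875) and 1.29 ± 0.40 in input (edgeR adjusted p = 0.266), where PBS mice measured 2.67, 2.28 and 3.32 CPM and IAKA mice 2.93 to 12.2 CPM. At 24 hours Tyrobp measured 2.73, 1.07 and 3.47 CPM in the m6A libraries of PBS mice and 2.02, 3.03, 3.64, 4.50 and 8.01 CPM in those of IAKA mice, the last in mouse 8. That difference was 0.97 ± 0.61, and without mouse 8 it was 0.45. In input it was 0.75 ± 0.85, and 0.55 without mouse 8. Neither gene of the receptor pair passed the edgeR test at either time.

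Spp1 encodes osteopontin, a secreted phosphoprotein that binds integrins and CD44, and was the member that stood out at 24 hours. In m6A libraries the PBS mice measured 8.53, 4.65 and 12.03 CPM. The IAKA mice measured 63.1, 20.0, 55.0, 119 and 81.5 CPM, so that all 5 lay above all 3 PBS mice, as for 2.62% of the 16470 genes tested. The log2 estimate was 3.04 ± 0.58, about 8.23-fold, with the 38th smallest p of all genes and an edgeR adjusted p of 0.157. Within set 4, whose 2 IAKA and 2 PBS libraries had matched assay scores, Spp1 measured 55.0 and 119 CPM against 8.53 and 4.65, and the difference of 3.59 ± 0.47 passed (edgeR adjusted p = 0.0375). It also passed when all m6A groups shared 1 fit (adjusted p = 0.0272), without the filter on low counts (0.0159) and with DESeq2 (1.13e-05). Without mouse 8 the difference was 2.85 ± 0.53 (edgeR adjusted p = 0.071). Leaving out 1 library at a time gave 2.77 to 3.39, with edgeR adjusted p of 0.071 to 0.955, so Spp1 passed in none of these fits. With the library set as a block no gene passed.

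In input at 24 hours Spp1 measured 4.49 CPM in the 1 PBS mouse and 43.8, 14.9 and 43.6 CPM in the IAKA mice. Its log2 difference was 3.26 ± 0.90 (edgeR adjusted p = 0.332; DESeq2 adjusted p = 0.0163), with the spread between mice estimated over all input groups. Without mouse 8 it was 2.95 ± 0.89 (edgeR adjusted p = 0.104). By 2 weeks the values lay closer together: 5.45, 6.92, 11.8, 12.5 and 10.9 CPM in the m6A libraries of PBS mice and 12.1 to 35.5 CPM, with a median of 14.9, in those of IAKA mice. That difference was 1.01 ± 0.32 (edgeR adjusted p = 0.875), and in input it was 0.73 ± 0.47. Mouse 42 was the highest in both assays, and without it the differences were 0.74 and 0.33. Mouse 6 was the lowest IAKA mouse in both, and without it they were 1.08 and 0.92.

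Lgals3 encodes galectin-3, a lectin that marks damaged lysosomes, and was low throughout. In input at 24 hours the 1 PBS mouse measured 0.315 CPM from 4 reads, and the IAKA mice measured 6.55, 3.07 and 1.31 CPM, the lowest in mouse 8. The log2 difference was 3.69 ± 1.23 (edgeR adjusted p = 0.396), and without mouse 8 it was 4.08 ± 0.91 and passed (edgeR adjusted p = 0.0458). The ratio of pooled CPM was 10.0 by counting alone, with a 95% interval of 3.72 to 37.9. In m6A libraries the PBS mice measured 1.83, 0.143 and 0.517 CPM and the IAKA mice 8.59, 3.63, 2.45, 2.03 and 1.34 CPM, so that 4 of 5 exceeded every PBS mouse. The difference was 1.93 ± 0.82 (edgeR adjusted p = 0.893), and without mouse 8, the lowest of the IAKA mice, it was 1.96. At 2 weeks Lgals3 was filtered out in both assays, and no library then exceeded 1.36 CPM.

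Axl encodes a TAM receptor tyrosine kinase that recognises phosphatidylserine on dying cells through its ligand GAS6. In input at 2 weeks it measured 13.1, 8.27 and 10.1 CPM in PBS mice and 11.6 to 34.3 CPM in IAKA mice, 5 of which exceeded every PBS mouse. The log2 estimate was 1.07 ± 0.34 (edgeR adjusted p = 0.266). In m6A libraries it was 0.51 ± 0.39, with overlapping ranges of 8.79 to 15.3 CPM in PBS mice and 5.38 to 38.6 CPM in IAKA mice, where mouse 6 was the lowest and mouse 42 the highest. Without mouse 6 it was 0.68, and without mouse 42 it was 0.10. At 24 hours Axl measured 19.1, 18.6 and 10.1 CPM in the m6A libraries of PBS mice and 25.8, 13.9, 22.4, 23.7 and 4.38 CPM in those of IAKA mice, mouse 8 the lowest. The m6A estimate of 0.08 ± 0.44 had no fixed sign, from -0.16 to 0.33 as 1 library at a time was left out. In input at 24 hours the 1 PBS mouse measured 9.93 CPM and the IAKA mice 25.6, 17.2 and 6.96 CPM, the last in mouse 8. That log2 difference was 0.99 ± 0.64, and 0.54 to 1.34 leaving out 1 library.

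Apoe, the main lipid carrier of brain, was the 1 member with lower estimates in IAKA mice at 24 hours. In input the IAKA mice measured 283, 312 and 81.1 CPM, the last in mouse 8, all below the 464 CPM of the 1 PBS mouse, as for 33.1% of the 17644 genes tested. In m6A libraries the PBS mice measured 1607, 1465 and 958 CPM and the IAKA mice 951, 689, 821, 1204 and 115 CPM, mouse 8 again the lowest. The m6A difference was -0.93 ± 0.51 (edgeR adjusted p = 0.983), -0.66 without mouse 8 and -0.72 ± 0.20 within set 4 (edgeR adjusted p = 0.11). At 2 weeks in input the order was turned: 408, 332 and 298 CPM in PBS mice against a lowest value of 384, a median of 620.2 and a highest of 1033 CPM in IAKA mice, with a difference of 0.98 ± 0.31 (edgeR adjusted p = 0.266). The m6A difference at 2 weeks was 0.33 ± 0.46, and 0.51 without mouse 6, the lowest at 269 CPM. Over the alternatives run it was 0.06 to 1.03, and 0.06 to 0.54 leaving out 1 library. In these m6A libraries PBS mice measured 1673 and 1491 CPM in set 4 and 787, 808 and 445 CPM in set 5. IAKA mice measured 2386, 994 and 269 CPM in set 3 and 2195, 730 and 994 CPM in set 5. Astrocyte markers were higher too, with overlap: the summed CPM of 9 astrocyte genes was 2266 to 4535 in the input of PBS mice at 2 weeks and 3370 to 7638 in that of IAKA mice, and their part in the Apoe values was not tested.

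Lpl, which hydrolyses triglycerides, gave no steady direction. At 2 weeks it measured 126, 116, 203, 154 and 119.9 CPM in the m6A libraries of PBS mice and 93.8 to 227 CPM in those of IAKA mice, a difference of 0.15 ± 0.24. In input the difference was -0.11 ± 0.17. At 24 hours mouse 8 alone set the sign: it measured 496 CPM in m6A and 293 CPM in input, whereas the other IAKA mice measured 88.9 to 158 CPM and 79.8 to 88.8 CPM. With it the log2 differences were 0.44 and 0.36, and without it they were -0.54 and -0.67.

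**Figure D3:**
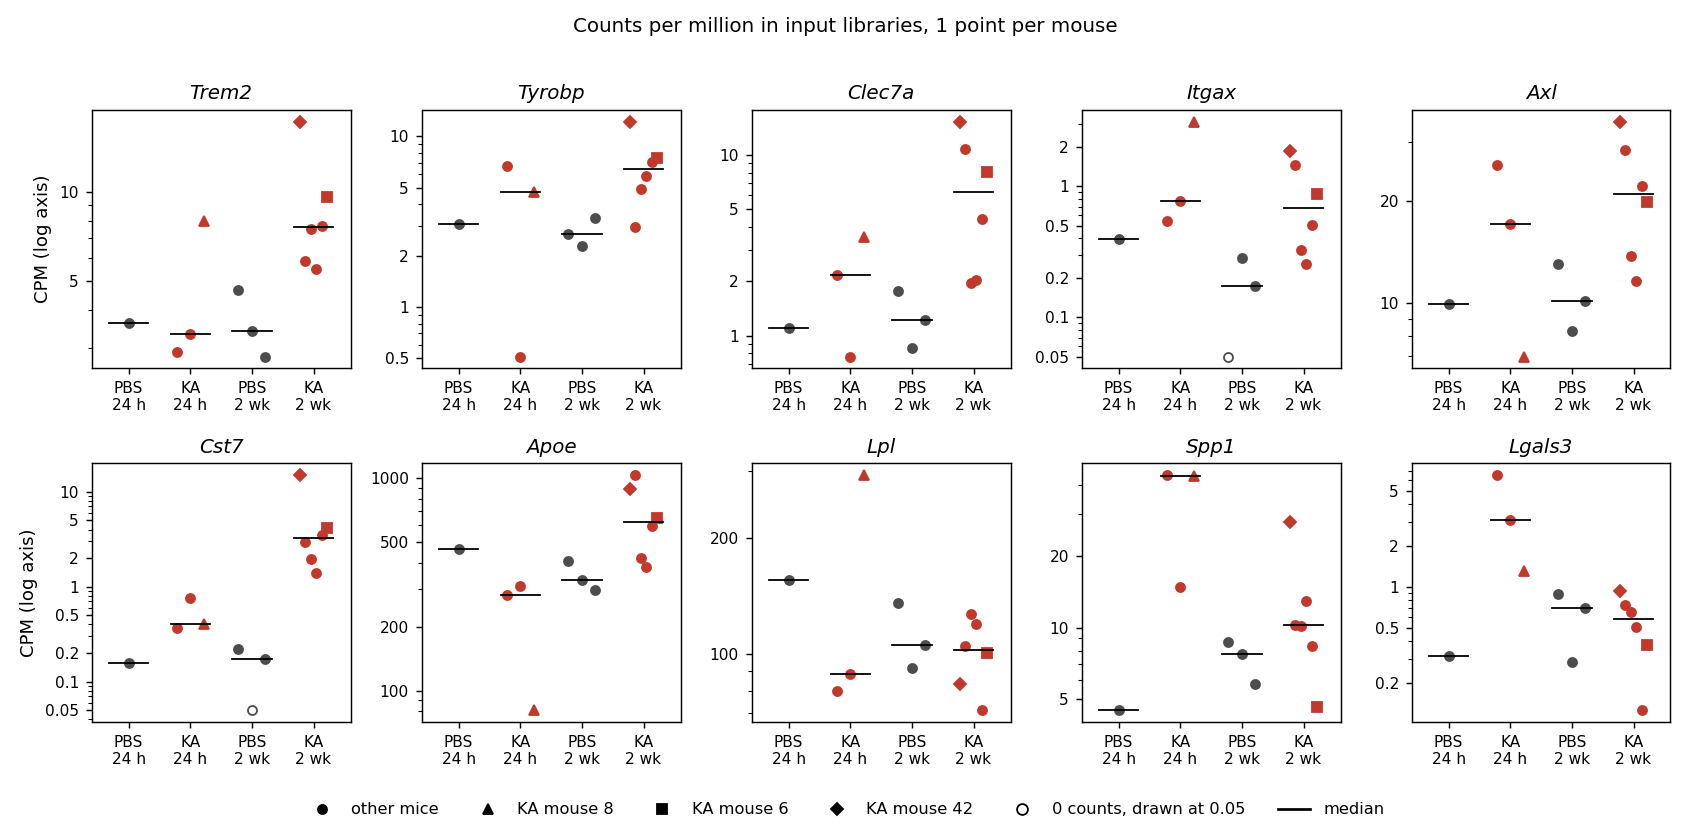
CPM (log axis) of each member in the input libraries, 1 point per mouse (grey, PBS; red, IAKA, written KA; bar, group median; open symbols, 0 counts). At 2 weeks Clec7a, Cst7 and Trem2 in all 6 IAKA mice lie above the 3 PBS mice; at 24 hours 1 PBS mouse is available.

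Counted over the members, no comparison of IAKA with PBS gave a call at an adjusted p of 0.05. The fit across all genes called 1 of 16470 genes in m6A at 24 hours (0.00607%), 0 of 16157 in m6A at 2 weeks, 0 of 17644 in input at 24 hours and 0 of 13752 in input at 2 weeks. Those 3 counts of 0 were from edgeR, which gave 809, 1628 and 1938 genes at an unadjusted p under 0.05, and DESeq2 called 15, 197 and 116 genes. In input at 2 weeks 6 of the 8 members tested were higher at an unadjusted p under 0.05 (Cst7, Clec7a, Trem2, Tyrobp, Axl and Apoe), against 8.41% of all genes tested. In m6A at 2 weeks it was 5 of 8 (Clec7a, Cst7, Spp1, Tyrobp and Trem2), against 2.85%. At 24 hours it was 3 of 9 in m6A (Spp1, Cst7 and Lgals3), against 4.02%, and 2 of 10 in input (Spp1 and Lgals3), against 4.99%. The members' median log2 difference was 1.01 in m6A and 1.18 in input at 2 weeks, and 0.97 and 1.19 at 24 hours, where the medians of all genes tested were -0.00, 0.02, 0.08 and 0.27. In input at 24 hours 4 of the 10 members (Spp1, Lgals3, Cst7 and Itgax) were higher in all 3 IAKA mice than in the 1 PBS mouse, against 10.9% of all genes. For Cst7 this rested on 2, 3 and 4 reads in IAKA mice and 2 in the PBS mouse. Its ratio of pooled CPM was 2.96, with a 95% counting interval of 0.612 to 28.1 that includes no difference. Itgax had 3, 3 and 31 reads in IAKA mice and 5 in the PBS mouse. The median of all genes in input at 24 hours, 0.27, was -0.04 with scaling by library size alone, and input differences at 24 hours are to be read against it. Members that passed the filter partly through the group in which they are high had to differ, so these counts describe the members tested and not all 10.

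**Figure D4:**
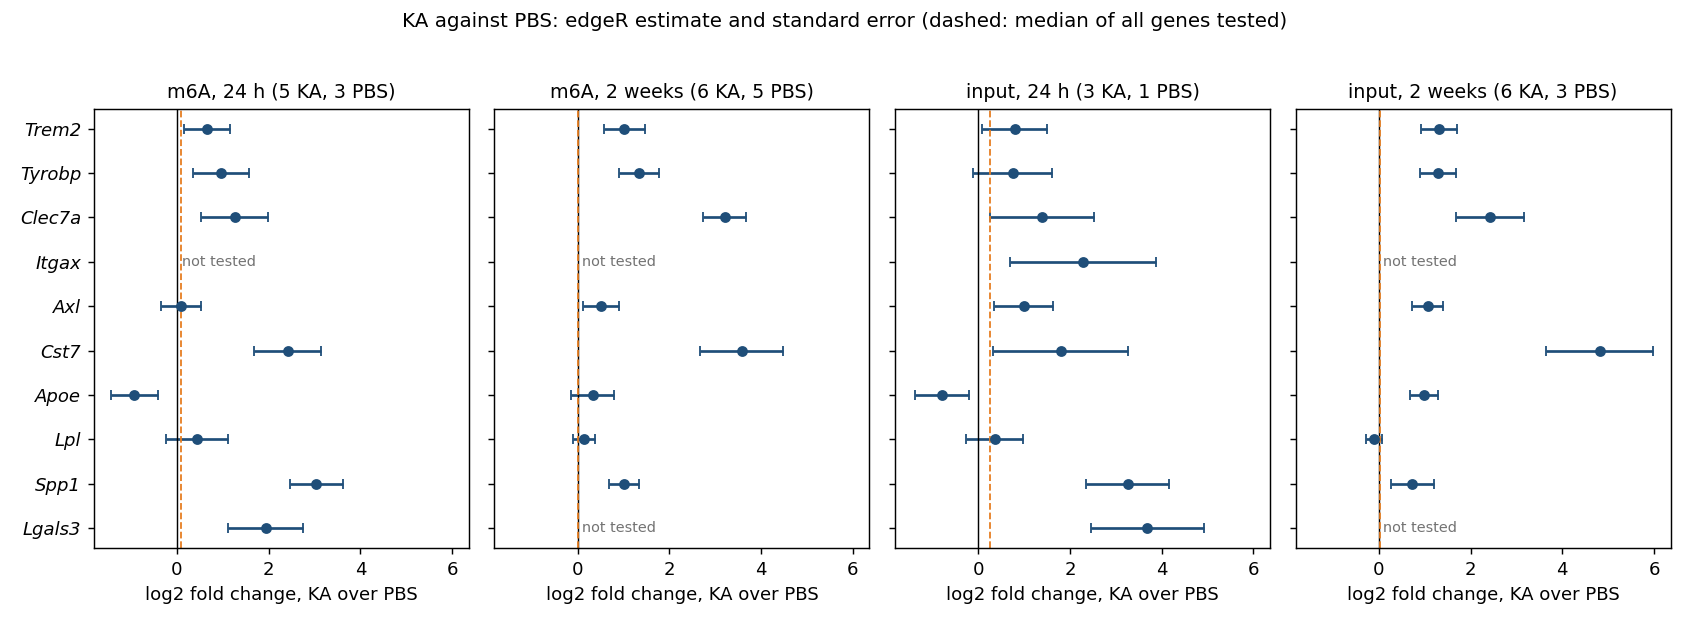
log2 fold change of IAKA (KA) over PBS for each member, with its standard error, in the 4 comparisons; the dashed line is the median of all genes tested. Spp1 and Lgals3 lie farthest right at 24 hours in input and Cst7 and Clec7a at 2 weeks in both assays; Apoe lies left of 0 at 24 hours.

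Whether the difference between IAKA and PBS mice itself differed between the times was tested as an interaction over the 19 m6A libraries. No member passed, and 1 of 17440 genes did (0.00573%). Spp1 had the lower difference at 2 weeks, by -2.03 ± 0.61 on the log2 scale, with an edgeR adjusted p of 1. Clec7a and Itgax had the higher difference at 2 weeks, by 1.93 ± 0.78 and 2.98 ± 1.4, also with an adjusted p of 1. Leaving out the m6A libraries of mice 6 and 8 gave -1.78 for Spp1, 2.20 for Clec7a and 3.70 for Itgax. An early Spp1 and a late Clec7a are therefore a pattern of the values that the test over all genes did not call.

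The m6A libraries could be set against the input of the same mouse at 2 weeks in 6 IAKA and 3 PBS mice. CPM is scaled by library size alone, and in a fit scaled that way the median log2 ratio of all genes was 0.25. That fit called 3171 genes higher in m6A and 316 lower. The CPM ratios of the members are to be read against that median. Spp1 had a higher CPM in m6A than in input in all 9 mice, 1.24 to 2.62 times, with a median of 1.58. Apoe had it in 8 of 9, with a median ratio of 1.93, and the exception was mouse 6 at 0.417. Lpl had it in 8 of 9, with a median of 1.5. For Clec7a, Trem2, Tyrobp, Cst7 and Axl the medians lay between 0.892 and 1.11. Itgax, with reads in both assays in 6 mice, had a median of 0.837 and was above 1 in 2 of them, and Lgals3 had a median of 0.639 and was above 1 in 3 of 9. In the fit over both assays Apoe was the 1 member of 9 called, with a log2 ratio of 1.03 ± 0.33 (edgeR adjusted p = 0.0424), against 12.4% of the 16141 genes tested. With the mouse as a block that ratio was 0.61 ± 0.22 (edgeR adjusted p = 0.0733), and without the m6A library of mouse 6 it was 1.12 ± 0.29 (0.011). Over the 25 alternatives run for Apoe, this call was lost in 14. Spp1 and Lpl were not called, with log2 ratios of 0.27 ± 0.29 (edgeR adjusted p = 0.578) and 0.27 ± 0.16 (0.292). The change of the ratio with IAKA was called for no member and 0 of 16141 genes by edgeR (655 at an unadjusted p under 0.05, and 4 genes by DESeq2). For Clec7a that change was 0.71 ± 0.86, and for Trem2 -0.31 ± 0.66. Leaving out 1 library they were 0.48 to 1.095 and -0.727 to -0.001.

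**Figure D5:**
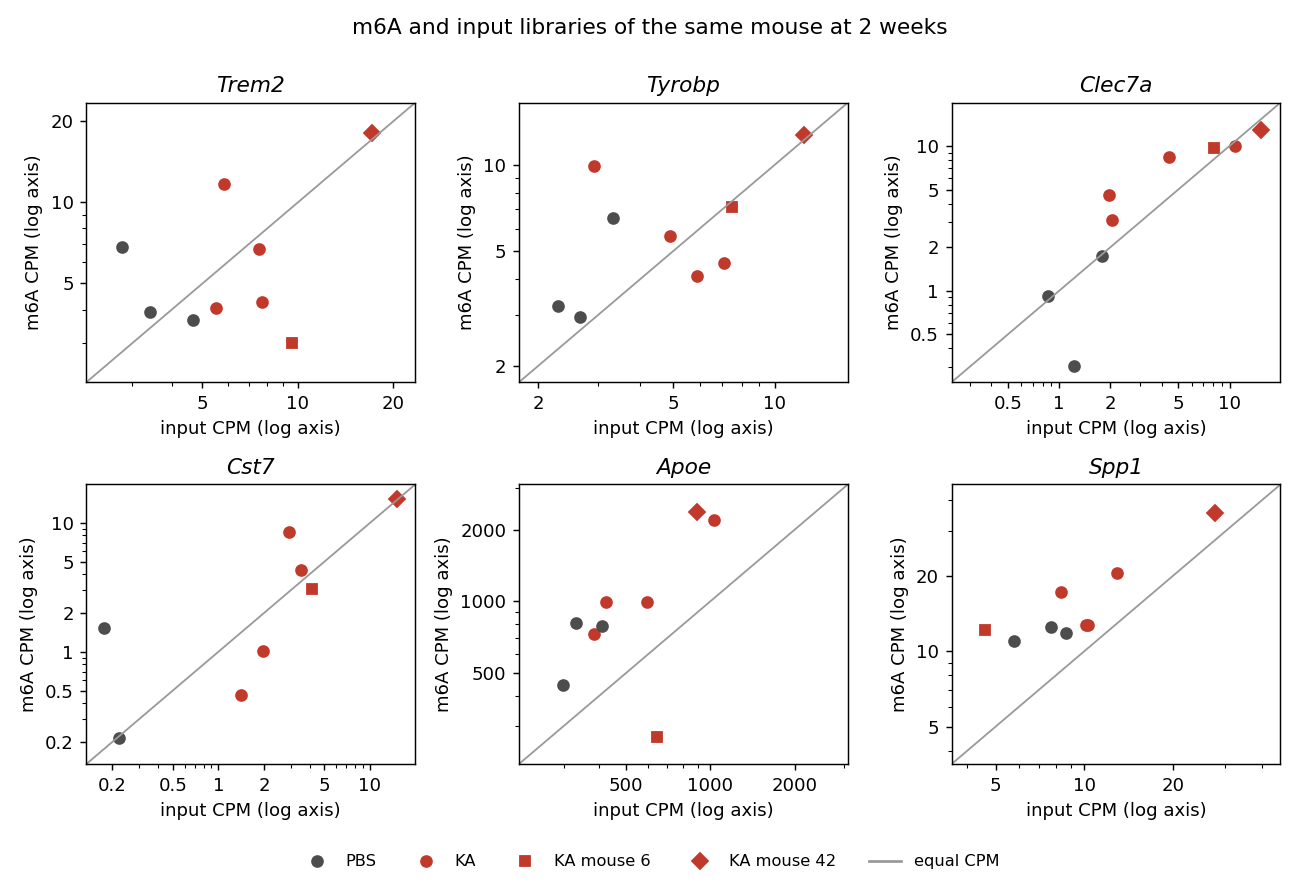
m6A CPM against input CPM (both log axes) of the same mouse at 2 weeks, for 6 members (grey, PBS; red, IAKA, written KA; square, mouse 6; diamond, mouse 42; line, equal CPM; 1 PBS mouse without Cst7 reads in input is not drawn). Spp1 lies above the line in all 9 mice, and mouse 42 lies at or near the top right for each member drawn. Scaled by library size alone, the median log2 ratio of all genes tested was 0.25.

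Within the 6 IAKA mice at 2 weeks the members moved by mouse. Mouse 42 had the highest m6A CPM of 9 members and the highest input CPM of 8, and for 8 it was highest in both. The exceptions were Lpl, highest in mouse 5 in both assays, and Apoe, highest in mouse 21 in input. As both libraries were made from the same mouse, their order is not independent. Mouse 42 also had the highest summed CPM of 12 pan-myeloid genes, 710 in m6A and 526.3 in input, where the other IAKA mice measured 210 to 441 and 182 to 328. It was highest too for 9 astrocyte genes, 7528 and 7638 against at most 5063 and 7022. For 11 homeostatic microglia genes it had 542 and 418 against at most 396 and 373. It was not highest for 6 oligodendrocyte genes, 2788 and 1826 against up to 4159 and 3163. Its part in the members' differences can be read from the values without it. In input the Cst7 difference was then 4.14, Clec7a 2.09, Tyrobp 1.08, Trem2 1.05, Axl 0.89, Apoe 0.86 and Spp1 0.33. In m6A Clec7a was 3.05 and Cst7 2.95, whereas Spp1 was 0.74, Trem2 0.61 and Axl 0.10.

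Other myeloid genes were read from lists. The summed pan-myeloid CPM, from genes such as Ctss (cathepsin S), was 129 to 211 in the m6A libraries of PBS mice at 2 weeks and 210 to 710 in those of IAKA mice. In input it was 106 to 168 against 182 to 526.3, with no overlap. None of the 12 genes passed the adjusted threshold, and their median log2 difference was 1.05 in m6A and 1.34 in input, close to the members' own. Ctss measured 47.3 to 80.4 CPM in PBS and 94.7 to 241 CPM in IAKA m6A libraries, without overlap, with a difference of 1.45 ± 0.28 (edgeR adjusted p = 0.43). Homeostatic microglia genes, with Cx3cr1 the most abundant by CPM, had a median of 0.39 in m6A and 0.52 in input at 2 weeks and -0.13 in m6A and 0.65 in input at 24 hours, and 0 of 11 passed. Cx3cr1 itself measured 28.1 to 92.7 CPM in PBS and 47.7 to 159 CPM in IAKA m6A libraries at 2 weeks. The part that the level of all myeloid transcripts has in the members' values was not tested.

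Infiltrating monocyte genes were low: their 9 genes summed to 10.9 to 29.0 CPM in PBS and 17.1 to 69.7 CPM in IAKA m6A libraries at 24 hours, the highest in mouse 8. In input at 24 hours they summed to 15.8 CPM in the PBS mouse and 19.5 to 53.0 CPM in IAKA mice, and at 2 weeks to 9.70 to 12.6 against 7.81 to 19.9 CPM. Ccr2, the receptor that marks these monocytes, measured 5.37 to 13.2 CPM in PBS and 7.26 to 32.2 CPM in IAKA m6A libraries at 24 hours. No gene of the list was at 0 in every library of either group at 24 hours, and Plac8 was at 0 in all PBS libraries at 2 weeks. Of these 9 genes 7 were tested at 24 hours, and none passed in m6A. All 7 had log2 differences above 0 in both assays. Their median was 2.19 in input and 1.24 in m6A, above the members' own 1.19 and 0.97. The part of these genes in the Spp1 and Lgals3 values at 24 hours was not tested. Border macrophage genes summed to 11.5 to 13.4 CPM in PBS and 11.6 to 27.8 CPM in IAKA m6A libraries at 24 hours. Markers outside the myeloid lineage differed too at 24 hours. The 6 endothelial genes had a median log2 difference of 1.76 in input, above the members' own, and 0.34 in m6A, and none passed. Their summed CPM was 206 to 292 in PBS and 299.5 to 482 in IAKA m6A libraries, without overlap, and 887 in the PBS mouse against 440.5 to 1211 in IAKA mice in input. The 5 choroid plexus genes had a median of 1.03 in input and 0.86 in m6A, with summed m6A CPM of 45.7 to 598 in PBS and 29.0 to 972 in IAKA mice. Their part in the members' values at 24 hours was not tested.

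Genes around the members' receptors gave smaller differences. Of 12 genes of TREM2 signalling 11 were tested in m6A at each time, with medians of 0.56 at 24 hours and 0.49 at 2 weeks, and in input 1.00 and 0.97. None passed. Lcp2, an adaptor in that pathway, measured 14.3 to 20.4 CPM in PBS and 13.1 to 48.8 CPM in IAKA m6A libraries at 24 hours. Of the 4 genes of the TAM receptor system none passed, and the ligand Gas6 had a difference of -0.06 ± 0.30 in m6A at 2 weeks. Of 26 other disease-associated microglia genes none passed, 12 were higher at an unadjusted p under 0.05 in m6A at 24 hours (4.02% of all genes) and 7 of 24 at 2 weeks (2.85%), with medians of 0.80 and 0.41. Fth1, the ferritin heavy chain and the gene of that list with the highest CPM, differed by 0.31 ± 0.29 and -0.15 ± 0.20.

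The genes whose m6A levels followed the members' mean log2 CPM most closely across the 19 libraries, of 11954 compared, were Gpnmb (Pearson r = 0.87), Plek (0.80), Rnh1 (0.77), C4b (0.75) and Cd9 (0.75). Gpnmb encodes a lysosome-linked glycoprotein, Plek pleckstrin, Rnh1 a ribonuclease inhibitor, C4b a complement component and Cd9 a tetraspanin. The libraries share groups, depth differences and mouse 42, so these values are descriptions. Without mice 6 and 8 they were 0.86, 0.82, 0.82, 0.83 and 0.74. Without mouse 42 they were 0.79, 0.81, 0.74, 0.63 and 0.72, and over the 13 input libraries 0.67, 0.77, 0.34, 0.85 and 0.84. Gpnmb measured a log2 difference of 1.2 ± 0.40 and Cd9 of 1.02 ± 0.29 in m6A at 2 weeks (edgeR adjusted p = 0.875 for both).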

How the data were processed

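Hippocampal RNA was extracted with Trizol, m6A RNA was immunoprecipitated, and libraries were made with the SMARTer Stranded Total RNA-Seq Kit v2. Per the labels the genome build was mm10, whereas for aligner and counter: not given in the sources used here. The authors deposited unnormalized counts per gene symbol and lane for 32544 genes in 15 files. Of these, 140 columns made 35 libraries, each the sum of 4 lanes, and 8 columns that match no labelled sample were not used. The assay is named in the columns of 8 libraries and was inferred from the column prefix in 27. Lane sums were divided by the library total for CPM. Because counting by strand is not stated, genes overlapping on the other strand may share reads.

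For tests, counts filtered with filterByExpr and scaled by TMM went into the quasi-likelihood test (robust) of edgeR 4.0.16, under R 4.3.3, with p-values adjusted over all genes after Benjamini and Hochberg, at a threshold of 0.05, checked on simulated data. The standard error is the log2 difference over the square root of F. At 24 hours input has 1 PBS library, so all input groups shared 1 fit. DESeq2 1.42.0 was an alternative, beside those named below. The mouse pairs m6A and input libraries by label: deviations from group means correlated by 0.149 to 0.496 in IAKA mice and -0.023 to 0.099 in PBS mice. The text names all members, of each list the gene with the highest mean CPM, since none passed in m6A for IAKA over PBS at either time, and the 5 genes most like the members with a mean of at least 5 CPM. Genes named besides these (Plac8, and marker genes) were chosen after their values were seen. The members and the gene lists were chosen with earlier results of these data known. Each library of a group and assay came from another mouse. The standard errors rest on the spread between mice, in the group sizes given above. Depth was 1652933 to 34564536 counts per m6A library. Python 3.11.15, pandas 2.3.3, numpy 2.4.6 and matplotlib 3.10.9 made tables and plots.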

Additional observations from a re-analysis of the deposited data

Results flagged for a closer look

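Within groups of 4 to 10 libraries, 40 groups of members' CPM were screened for a highest or lowest library set apart by Dixon's criterion, and 7 met it. Chance meets it in about 1 group in 20 where values are normally distributed and groups independent. CPM need not be normal, and the same mice recur across members and assays, so 7 of 40 cannot be set against that rate. Of these, 5 were high values of IAKA mouse 42 at 2 weeks: Cst7 in input at 15.0 CPM (next 4.12), Trem2 in input at 17.2 CPM (next 9.60), Spp1 in m6A at 35.5 CPM (next 20.4), Spp1 in input at 27.8 CPM (next 12.9) and Itgax in m6A at 3.76 CPM (next 1.2). Lpl in the m6A library of IAKA mouse 8 at 24 hours measured 496 CPM, and the next highest 158 CPM. Trem2 in the m6A library of PBS mouse 4 at 2 weeks measured 6.84 CPM, and the next highest 3.91 CPM.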

How the results depend on the processing

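Over the alternatives run for each member and comparison, 1242 log2 differences kept their direction and side of the threshold, 36 changed sign, 13 came to pass and 14 no longer passed. All 14 were losses of 1 call, Apoe in m6A over input, which was the 1 member call of the main fits. It had 25 alternatives.

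Genes called, against 1, 0, 0 and 0 for IAKA over PBS in m6A at 24 hours, m6A at 2 weeks, input at 24 hours and input at 2 weeks, were 156, 15, 197 and 116 with DESeq2 (members 1, 2, 1 and 2) and 22, 2, 3 and 4 without a filter (members 1 and 1 in m6A). In m6A at 24 hours they were 3 by library size alone, 0 with the library set as a block, 31 with all groups in 1 fit (member 1), 356 within set 4 (member 1), and 0 to 45 leaving out 1 library. The 45 were called without IAKA mouse 8, and 0 without PBS mouse 71 or 73. In m6A at 2 weeks there was 1 with all groups in 1 fit and 0 to 1 leaving out 1 library, the 1 being Clec7a without IAKA mouse 7 (adjusted p = 0.03) and another gene without PBS mouse 78. In input at 24 hours there were 1 by library size, 2 with the set as a block, 8 with the shallow libraries included, 342 among unprefixed libraries (Lgals3 the 1 member) and 0 to 180 leaving out 1 library, 180 without IAKA mouse 8 and 1 without IAKA mouse 67 or 98. In input at 2 weeks leaving out 1 library gave 0 to 1, the 1 without PBS mouse 2 or IAKA mouse 42 or 7. The change between times gave 5 with DESeq2 and 2 with the set as a block, against 1. Within-set fits and the fit without mice 6 and 8 were chosen after seeing the data.

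For m6A over input at 2 weeks, 1994 genes were called, 3487 by library size, 2664 with the mouse as a block, and 1082 to 2621 leaving out 1 library. Without input of PBS mouse 2, 3 or 4 it was 1159, 1169 or 1082. Apoe was the 1 member called, and 0 were without a filter or with the mouse as a block, and 0 to 1 leaving out 1 library. The change of that ratio gave 4 with DESeq2 and 1 with the mouse as a block, against 0.

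Signs turned for these log2 differences. Lpl was -0.31 in m6A at 24 hours with the set as a block and within set 4, -0.059 and -0.042 at 2 weeks with the set as a block and within set 5, and -0.012, -0.001 and -0.67 in input at 24 hours by library size, with the set as a block and in unprefixed libraries. Leaving out 1 library, Lpl was -0.54 to 0.60 in m6A and -0.67 to 0.71 in input at 24 hours. Axl was -0.16 to 0.33 in m6A at 24 hours. Trem2 in input at 24 hours was -0.003 to 1.09, and -0.004 in unprefixed libraries. For the change between times Lpl was -0.43 to 0.71 and Trem2 -0.008 to 0.892 leaving out 1 library, and Lpl 0.64 without mice 6 and 8. For m6A over input Trem2 was 0.014 by library size, and Tyrobp 0.126 by library size, 0.105 with the mouse as a block and -0.298 to 0.053 leaving out 1 library. For its change with IAKA the set as a block gave Clec7a -0.059, Lpl -0.011, Spp1 -0.61 and Tyrobp -0.66, the mouse block Tyrobp -0.45, and leaving out 1 library Spp1 -0.014 to 0.704 and Tyrobp -0.17 to 0.46. The cause was not tested. No fit was possible for input at 24 hours without its 1 PBS library, or for m6A over input with the set as a block.

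Depth limits the low members: 3 counts equal 1.81 CPM in the shallowest m6A library.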
